A study of Homo sapiens with 6 samples.

Results

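Genes of the contractile machinery of skeletal, cardiac and smooth muscle, with the transcription factors that drive them, were followed in A204 cells given SAHA and in control A204 cells. The genes were taken from a fixed list of 59 symbols. Of these, 56 had a probe set that named exactly 1 gene and were measured, among 18417 genes in all. Where a gene had several such probe sets, the one with the highest mean over all 6 arrays was used, which concerned TPM4 alone. MYLPF, TNNT2 and TPM3 were not analysed here.

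The study used A204, an established line of human rhabdoid tumour cells that was at first catalogued as a rhabdomyosarcoma. Rhabdoid tumours typically lose SMARCB1, a subunit of the SWI/SNF chromatin remodeller. The 3 SAHA arrays came from A204 cells treated for 12 h with SAHA (vorinostat), an inhibitor of histone deacetylases. The 3 control arrays came from A204 cells given DMSO according to the treatment protocol, although another label gives their treatment as none. The labels print the dose of SAHA with an incomplete unit, so no concentration is given here. All cells grew in DMEM with serum, and the whole comparison rests on 1 cell line. The labels do not say whether replicates were grown separately, and p-values therefore cover only how these arrays vary, possibly for technical reasons alone.

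Signals are given as log2 of the deposited RMA value, a normalised hybridisation signal. A level applies to 1 probe set and is not set against the level of another gene. A gene was called when its limma p-value, adjusted by the Benjamini-Hochberg method over all genes, was under 0.05, and a change is SAHA minus control on the log2 scale. No detection call was used, so a gene with a low signal may be at background, where a fold change is understated. In bulk RNA, fewer cells that express a gene and less of its RNA per cell cannot be told apart. Median signals lay between 142 and 149 per array on the linear scale. Arrays of 1 group correlated at 0.9965 to 0.998 (Pearson, across probe sets) and arrays of different groups at 0.9728 to 0.9738. As checks of the cells, SMARCB1 read 7.16, 7.25 and 7.25 in SAHA cells, against 7.72, 7.71 and 7.78 in control cells. SMARCB1 was 1.43-fold lower in SAHA cells (adjusted p = 2.28e-05), and without a detection call its signal does not show whether the gene is present. CDKN1A, the p21 gene that HDAC inhibitors are known to induce, read 11.63, 11.60 and 11.66 in SAHA cells, against 10.37, 10.37 and 10.25 in control cells.

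Striated muscle contracts when calcium binds troponin and moves tropomyosin off the actin filament, so that myosin heads can pull on it within a sarcomere held together by Z-disc, M-band and titin proteins. Smooth muscle and non-muscle cells instead switch myosin on through phosphorylation of its light chain by MYLK, and calponin, caldesmon and transgelin bind their actin filaments. Skeletal muscle genes are driven by the myogenic factors MYOD1, MYF5, MYF6 and MYOG together with MEF2 proteins. SRF binds CArG boxes, and with its coactivator myocardin (MYOCD) it drives smooth and cardiac muscle genes. Class II histone deacetylases are known to bind and repress MEF2 proteins.

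As a whole, the muscle genes moved about as often as other genes did. Of the 56 measured members, 19 were higher in SAHA cells, 14 were lower and 23 did not pass the test, so that 58.9% were called against 60.0% of all genes tested. The background share was 31.1% for higher and 28.9% for lower calls. A change of at least 2-fold was found for 6 members (10.7%) against 11.3% of all genes (5.84% higher and 5.42% lower). These were ACTN3, MYOM1 and MEF2D, which rose, and MYL2, MB and TAGLN, which fell. The SAHA and control values did not overlap for 39 members (69.6%), against 65.4% of all genes. The median change was -0.02 over the members and -0.0027 over all genes. Rises made up 57.6% of the members' calls, but 45.9% after a further quantile normalization and 39.5% after centring on housekeeping genes. Over all genes that share was 51.9%, 48.6% and 41.0% under these settings in the same order. With only genes at or above the median level kept, rises were 26.7% of the members' calls (4 higher and 11 lower) and 47.8% of the calls over all genes.

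Most members gave a low signal. The mean level of 38 of the 56 lay under the median of all genes, and among such genes 40.6% were called over the whole array, against 19 of these 38. A called change of at least 2-fold was found for 7.6% of all genes under the median and 14.9% of those above it. Above the median 79.4% of all genes and 77.8% of the remaining 18 members were called. Under the median were 18 of 19 skeletal, 7 of 9 cardiac, 6 of 7 shared striated and 5 of 9 smooth muscle genes, but 1 of 8 broadly used isoforms.

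Counts are given here by class, and whether the classes differ was not tested. The 19 skeletal muscle genes comprised 6 rises, 3 falls and 10 genes that did not pass, and their median change was -0.04. The 9 cardiac genes comprised 2 rises, 2 falls and 5 that did not pass, around a median of -0.01. Among the 7 genes that skeletal muscle and heart share, 4 rose, 1 fell and 2 did not pass (median 0.22). The 9 smooth muscle genes split into 3 higher, 3 lower and 3 not passed (median -0.02). The 8 isoforms used by most cell types had 2 higher, 4 lower and 2 not passed (median -0.18), and the 4 factors MEF2A, MEF2C, MEF2D and SRF had 2 higher, 1 lower and 1 not passed (median 0.26). The shares called were 47.4% for skeletal, 44.4% for cardiac, 71.4% for shared striated and 66.7% for smooth muscle genes, beside the background of 60.0%. They were 75.0% for the broad isoforms and 75.0% for the 4 factors. Of the 8 broad isoforms 7 lay at or above the median level, where 79.4% of all genes were called. Among genes under the median level, where 40.6% of all genes were called, 8 of 18 skeletal genes (44.4%), 2 of 7 cardiac genes (28.6%) and 3 of 5 smooth muscle genes were called. MYH7, MYL2, MYL3 and TNNC1 serve slow skeletal muscle as well as heart, and counting them as skeletal turned the skeletal median to 0.04 and left the cardiac genes with 1 rise and 1 fall around a median of -0.11. The count of 3 lower skeletal genes was 0 without SAHA replicate 1 or 2 (2 and 1 at an unadjusted p under 0.05, limma) and 1 without control replicate 2. It was 6 after a further quantile normalization and 8 after centring on housekeeping genes. Over all genes the lower calls rose from 5314 to 5954 and 6893 under these 2 settings. The count of 2 lower cardiac genes was 1 without SAHA replicate 1 or 3 and without control replicate 2 or 3.

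**Figure D1:**
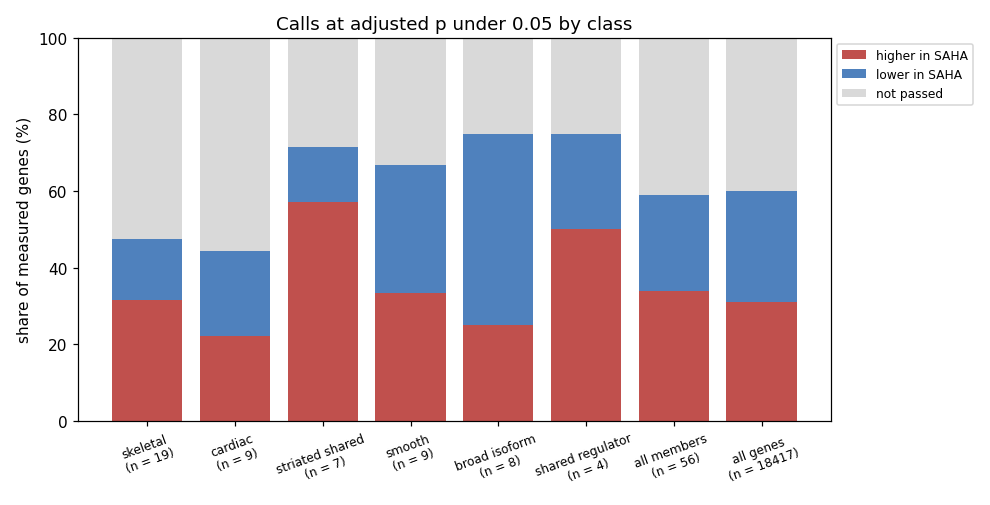
Share of measured genes (%, vertical axis) that were higher, lower or not called in SAHA against control cells at an adjusted p under 0.05, for each class of muscle genes, all 56 members and all 18417 genes; n is the number of genes measured. The bar of all members reaches 58.9% called and that of all genes 60.0%, while the skeletal and cardiac bars end at 47.4% and 44.4%.

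**Figure D2:**
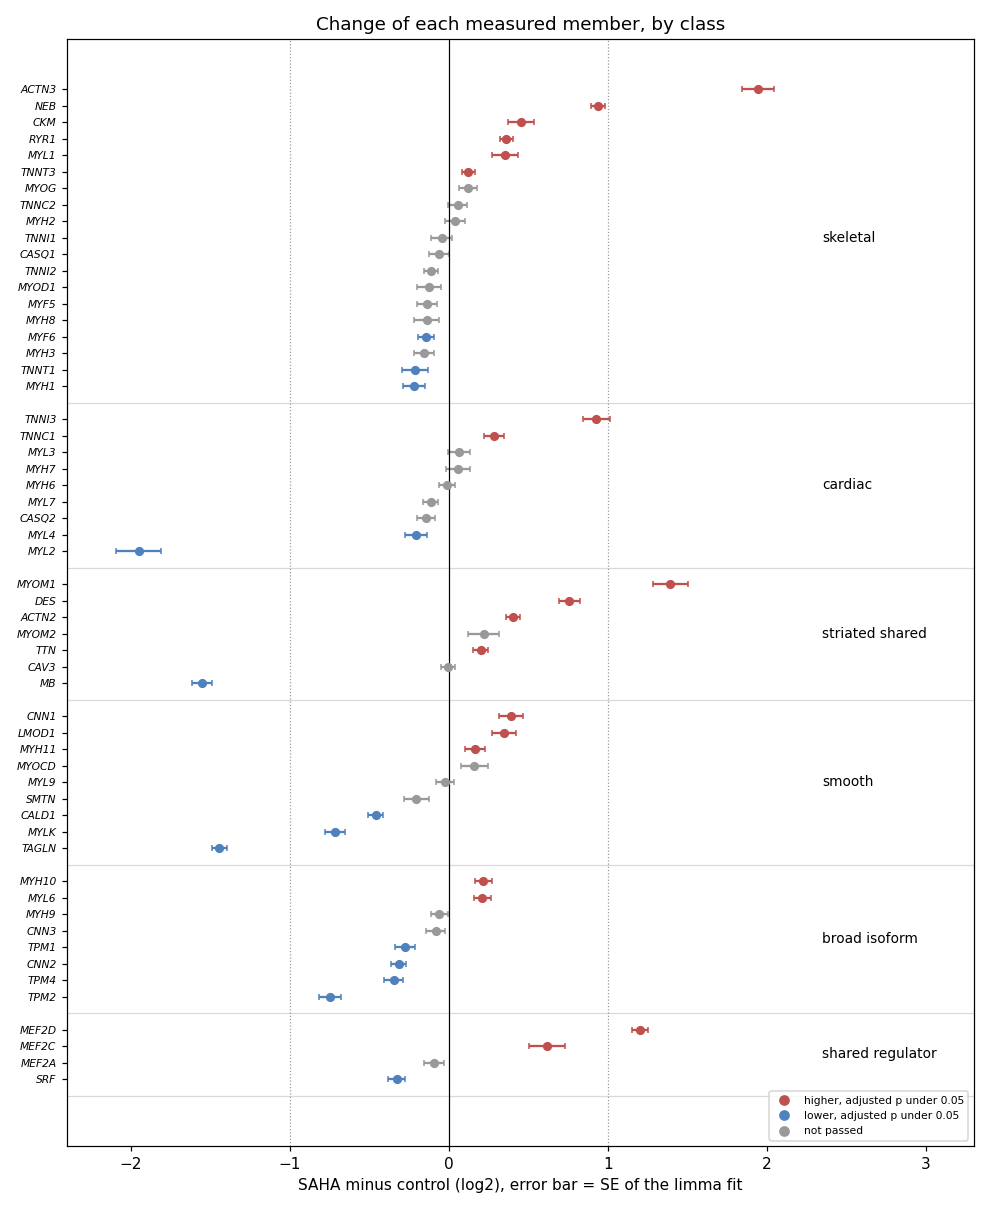
Change of each measured member (SAHA minus control, log2, horizontal axis) by class, with the standard error of the limma fit as the bar; red is higher, blue is lower and grey did not pass, and dotted lines mark 2-fold. Most skeletal and cardiac genes sit near 0, and ACTN3 at 1.94 and MYL2 at -1.95 lie at the ends.

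Of the 4 myogenic factors only MYF6 was called, and no change exceeded 0.15 in size. All 4 lay under the median level, where 40.6% of all genes were called. MYOD1, the factor that can turn other cells into muscle, read 6.32, 6.43 and 6.35 in SAHA cells, against 6.42, 6.41 and 6.65 in control cells, and the groups overlapped (change -0.12 ± 0.07 SE, adjusted p = 0.181). MYF5, its partner in early muscle commitment, read 5.18, 5.33 and 5.39 in SAHA cells, against 5.43, 5.46 and 5.42 in control cells. All SAHA values of MYF5 were under the control values, yet it did not pass (adjusted p = 0.0921). It did pass without SAHA replicate 3 (adjusted p = 0.0452). MYOG, myogenin, which acts when myoblasts differentiate, read 7.48, 7.42 and 7.47 in SAHA cells, against 7.42, 7.36 and 7.23 in control cells. Its SAHA and control values overlapped at 1 array of each group, and it did not pass (adjusted p = 0.109, but 0.0466 without control replicate 1). MYF6, which is prominent in mature fibres, was at 5.62, 5.57 and 5.71 in SAHA cells, against 5.82, 5.77 and 5.73 in control cells. That gave a change of -0.14 with an adjusted p of 0.0451. The call of MYF6 ended without SAHA replicate 1 (adjusted p = 0.113) or 2 (0.151) and without control replicate 1 (0.129) or 2 (0.0831), with the replicate block (0.0855), and with the trended robust (0.104) and unmoderated (0.0765) models. A further quantile normalization or centring on housekeeping genes made MYOD1 and MYF5 pass as lower (adjusted p of 0.0164 to 0.0467 for MYOD1 and 0.0295 and 0.0153 for MYF5).

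The MEF2 genes, whose proteins act with the myogenic factors, did not move alike. MEF2D rose 2.30-fold. Its level was 10.63, 10.58 and 10.68 in SAHA cells, against 9.37, 9.41 and 9.50 in control cells (change 1.20 ± 0.05 SE, adjusted p = 3.85e-07). MEF2C read 6.49, 6.44 and 6.56 in SAHA cells, against 5.71, 5.77 and 6.16 in control cells, a 1.53-fold rise (adjusted p = 0.00154) in which control replicate 3 stood closest to the SAHA arrays. MEF2A averaged 9.23 ± 0.05 in SAHA cells and 9.32 ± 0.11 in control cells (SD, n = 3 each), with overlapping values, a change of -0.09 (adjusted p = 0.248). A second round of quantile normalization turned its sign. With control replicate 1 left out it passed as lower (adjusted p = 0.0414). The difference between the 3 MEF2 genes was not tested.

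SRF, the serum response factor, fell 1.25-fold. It read 10.62, 10.65 and 10.55 in SAHA cells, against 10.93, 11.01 and 10.86 in control cells (change -0.33 ± 0.05 SE, adjusted p = 0.000824). MYOCD, its muscle coactivator, read 6.28, 6.36 and 6.22 in SAHA cells, against 6.14, 6.28 and 5.95 in control cells. The MYOCD groups overlapped and it did not pass (adjusted p = 0.141), although it did without control replicate 2 (adjusted p = 0.0283).

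**Figure D3:**
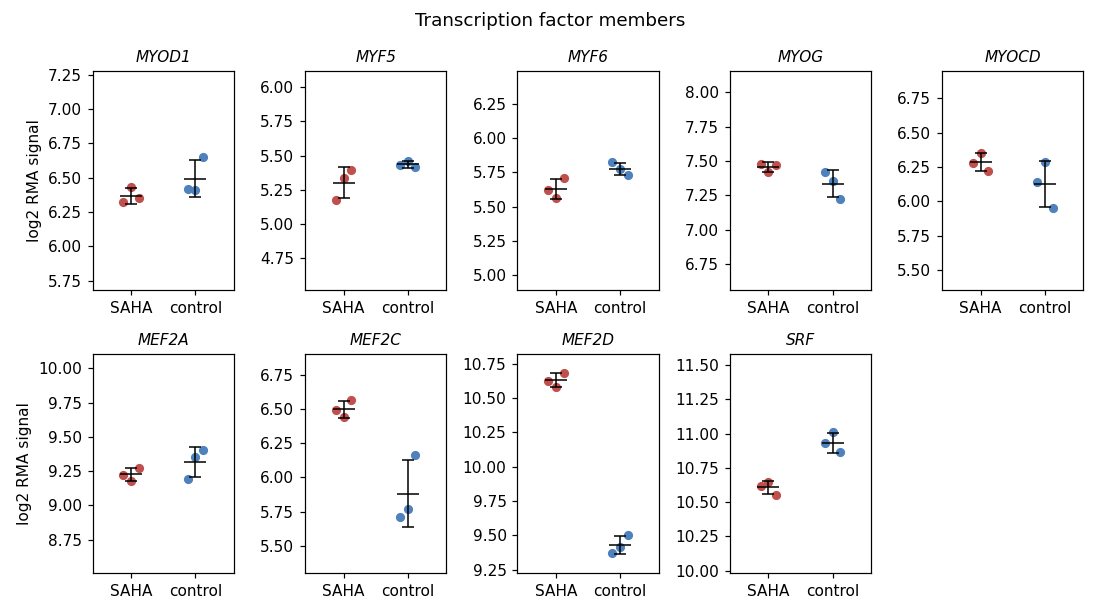
Level of each transcription factor on each array (log2 RMA signal, vertical axis) in SAHA cells (left, red) and control cells (right, blue), 3 arrays each; black bars are the mean and SD. MEF2D (change 1.20) and MEF2C (0.62) are higher and SRF (-0.33) and, by less, MYF6 (-0.14) are lower in SAHA cells, while the groups of MYOD1, MYOG, MYOCD and MEF2A overlap.

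Promoter sequences show where letters that SRF and MEF2 are known to bind occur beside the starts of these genes. A RefSeq table of GRCh38.p14 gave 300 bases per gene, 250 before the start and 50 from it, for 41 of the 59 members. ACTN3, TAGLN, MYL2 and DES were among the 18 others. Only 1 start per gene was used, which need not be the start of the transcript that the probe set measures. For MYLK it was not checked that this is the start of the kinase transcript. The CArG box, the SRF motif, was found in 6 of these 41 promoters (14.6%) and in 1.29% of all 27305 promoters of the same length. The CArG box reads the same on both strands, so 1 search covers both, and no CArG box overlapped a MEF2 site here. Of the 6 genes, SRF itself, MYLK, CNN2 and TPM4 fell, MYOM1 rose and MYL7 did not pass. Over all genes 28.9% fell and 31.1% rose. Those of the 6 that fell lay at or above the median level, where 79.4% of all genes were called. The 6 are shown because they did not all move the same way, although only 1 rose. Each is written 5′ to 3′ on the gene's strand, with the CArG box in capitals.

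SRF (chr6:43171199-43171268, + strand; boxes 30 and 10 bases before the start): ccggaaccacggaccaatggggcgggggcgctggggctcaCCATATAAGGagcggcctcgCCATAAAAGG
MYLK (chr3:123620593-123620682, - strand; box 94 bases before): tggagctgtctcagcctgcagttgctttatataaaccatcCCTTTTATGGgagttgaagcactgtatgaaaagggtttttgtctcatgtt
CNN2 (chr19:1026479-1026568, + strand; box 89 bases before): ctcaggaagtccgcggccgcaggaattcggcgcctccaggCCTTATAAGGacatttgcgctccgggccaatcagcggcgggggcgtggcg
TPM4 (chr19:16067325-16067414, + strand; box 173 bases before): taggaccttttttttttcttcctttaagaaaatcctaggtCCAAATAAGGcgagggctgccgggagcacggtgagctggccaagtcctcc
MYOM1 (chr18:3219969-3220040, - strand; box 32 bases before): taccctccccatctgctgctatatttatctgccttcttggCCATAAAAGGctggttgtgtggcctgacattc
MYL7 (chr7:44141344-44141433, - strand; box 61 bases before): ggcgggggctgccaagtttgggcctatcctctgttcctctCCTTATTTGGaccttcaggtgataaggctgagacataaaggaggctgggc

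The MEF2 site, an A and T rich motif that also reads alike on both strands, was found in 6 of the 41 promoters (14.6%) against 3.09% of all promoters. These belong to TTN, MYF6, MYH1, MYH8, CASQ2 and CAV3. TTN rose, MYF6 and MYH1 fell, and the other 3 did not pass. These 6 genes lay under the median level, where 40.6% of all genes were called. TTN, MYF6 and MYH1 are shown with the MEF2 site in capitals. In MYF6 and MYH1, as in MYH8, the site overlapped a match to TATAAA on one of the strands. TATAAA was searched on both strands and was present in 24.4% of the member promoters and in 12.0% of all promoters. The E-box CANNTG, the letters bound by the myogenic factors, was in 78.0% of the member promoters and 68.9% of all promoters. A match is a description of letters and not a bound site.

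TTN (chr2:178807541-178807630, - strand; site 167 bases before): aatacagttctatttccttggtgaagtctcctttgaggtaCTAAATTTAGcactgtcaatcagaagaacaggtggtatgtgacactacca
MYF6 (chr12:80707560-80707633, + strand; site 34 bases before): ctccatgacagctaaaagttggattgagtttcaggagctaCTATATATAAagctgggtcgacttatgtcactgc
MYH1 (chr17:10518703-10518792, - strand; site 210 bases before): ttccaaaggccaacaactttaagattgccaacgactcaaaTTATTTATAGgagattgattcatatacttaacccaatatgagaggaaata

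Among the scaffold genes of the sarcomere, 6 of 7 rose and none fell, where 31.1% of all genes rose. All 7 lay under the median level, where 40.6% of all genes were called in either direction. This grouping by role was made after the values were seen and is only a description. ACTN3, the alpha-actinin of fast fibres at the Z-disc, had the largest rise of all members. It read 8.75, 8.69 and 8.68 in SAHA cells, against 6.72, 7.002 and 6.56 in control cells, a 3.85-fold rise (change 1.94 ± 0.10 SE, adjusted p = 1.04e-06). MYOM1, myomesin of the M-band, read 7.45, 7.08 and 7.21 in SAHA cells, against 6.04, 5.74 and 5.78 in control cells, a 2.63-fold rise (adjusted p = 1.11e-05). Both genes lay above every control array by far more than the spread within a group.

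NEB, nebulin, which runs along the thin filament of skeletal muscle, rose 1.92-fold. Its values were 6.49, 6.46 and 6.43 in SAHA cells, against 5.50, 5.50 and 5.56 in control cells (adjusted p = 5.25e-07). DES, desmin, the intermediate filament that ties Z-discs together, was at 8.41, 8.21 and 8.40 in SAHA cells, against 7.58, 7.51 and 7.66 in control cells, 1.69-fold higher (adjusted p = 2.38e-05). Neither gene had overlapping groups, and 65.4% of all genes had none. ACTN2, the alpha-actinin of heart and all skeletal fibres, had 6.13 to 6.20 in SAHA cells and 5.74 to 5.80 in control cells, a rise of 0.40 ± 0.04 SE (adjusted p = 7.74e-05). TTN, titin, the spring of the sarcomere, was at 5.34 to 5.46 in SAHA cells and 5.19 to 5.20 in control cells, a rise of 0.20 (adjusted p = 0.00549) whose call ended after centring on housekeeping genes (adjusted p = 0.0564). MYOM2, a second myomesin, averaged 5.72 ± 0.14 in SAHA cells and 5.51 ± 0.16 in control cells (SD, n = 3 each) and did not pass (adjusted p = 0.0864), except with the replicate block (adjusted p = 0.0283).

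The 9 myosin heavy chains, the motors of the thick filament, had changes between -0.22 and 0.22, with 2 rises, 1 fall and 6 that did not pass. The share called was 33.3%, against 60.0% of all genes. Under the median level lay 7 of the 9, and 28.6% of these were called, against 40.6% of all genes under it. MYH10, the non-muscle myosin IIB, read 11.08, 11.005 and 10.99 in SAHA cells, against 10.81, 10.89 and 10.72 in control cells, a rise of 0.22 ± 0.05 SE (adjusted p = 0.00867). MYH9, the non-muscle myosin IIA, averaged 11.40 ± 0.04 in SAHA cells and 11.46 ± 0.08 in control cells (SD, n = 3 each) and did not pass (adjusted p = 0.372). It passed as lower after centring on housekeeping genes (adjusted p = 0.0437). MYH2, of fast fibres, and the cardiac chains MYH6 and MYH7 had changes of 0.04, -0.01 and 0.06, with overlapping groups, and the sign of each turned under at least 1 alternative. MYH3 and MYH8, the embryonic and perinatal chains, had changes of -0.15 and -0.14 (adjusted p = 0.0648 and 0.149). Both passed as lower without control replicate 1 (adjusted p = 0.028 and 0.0404), and MYH7 passed as higher without control replicate 2 (adjusted p = 0.0431). MYH3 also passed as lower after a further quantile normalization (adjusted p = 0.0131), cyclic loess (0.0381) and centring on housekeeping genes (0.012). MYH8 did so after centring on housekeeping genes (adjusted p = 0.0432) and MYH6 after a further quantile normalization (adjusted p = 0.0452). The sarcomeric heavy chain genes are close copies of each other, and their probes could share signal.

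The light chains gave the largest fall of all members. MYL2, the regulatory light chain of heart ventricle and slow fibres, read 7.83, 7.88 and 7.72 in SAHA cells, against 9.94, 9.94 and 9.40 in control cells. It was 3.87-fold lower in SAHA cells (change -1.95 ± 0.14 SE, adjusted p = 6.25e-06), and its control replicate 3 lay apart from the other control arrays but still far above all SAHA arrays. MYL1, the essential light chain of fast fibres, read 5.33, 5.61 and 5.33 in SAHA cells, against 5.07, 5.12 and 5.01 in control cells, a 1.28-fold rise (adjusted p = 0.00548). MYL3, MYL7 and MYL9, of ventricle, atrium and smooth muscle, had changes of 0.06, -0.11 and -0.02 and did not pass (adjusted p = 0.466, 0.0632 and 0.735). Of these, MYL7 had SAHA values of 5.93, 6.04 and 5.99 that all lay under its control values of 6.11, 6.08 and 6.12. MYL7 passed as lower after a further quantile normalization (adjusted p = 0.00279), cyclic loess (0.018) and centring on housekeeping genes (0.00738), while MYL3 and MYL9 turned sign under at least 1 alternative. MYL6, the essential light chain of smooth muscle and non-muscle cells, rose by 0.21 ± 0.05 SE, with 12.63 to 12.70 in SAHA cells and 12.37 to 12.51 in control cells (adjusted p = 0.00869, but 0.0511 after centring on housekeeping genes).

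**Figure D4:**
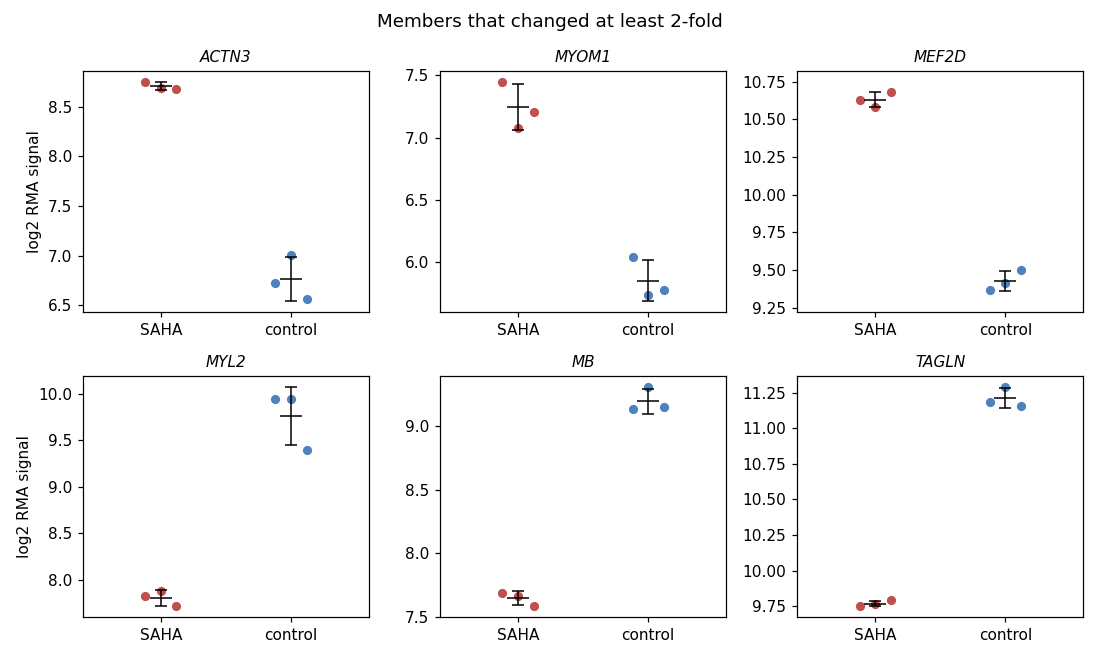
Level on each array (log2 RMA signal, vertical axis) of the 6 members called with a change of at least 2-fold, in SAHA cells (left, red) and control cells (right, blue), 3 arrays each; black bars are the mean and SD. ACTN3, MYOM1 and MEF2D are higher and MYL2, MB and TAGLN lower in SAHA cells. No gene shown has overlapping groups, which also holds for 65.4% of all genes.

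The troponins, the calcium switch of striated muscle, were led by a rise of TNNI3. This inhibitory subunit of heart read 9.14, 9.06 and 9.23 in SAHA cells, against 8.11, 8.14 and 8.40 in control cells, 1.90-fold higher in SAHA cells (adjusted p = 2.72e-05). TNNC1, the calcium-binding subunit of heart and slow fibres, read 6.63, 6.72 and 6.62 in SAHA cells, against 6.42, 6.25 and 6.45 in control cells, a 1.22-fold rise (adjusted p = 0.00527). The groups did not overlap for either gene, as for 65.4% of all genes. TNNC2, TNNI1 and TNNI2, of fast, slow and fast skeletal fibres, had changes of 0.06, -0.04 and -0.11 and did not pass (adjusted p = 0.469, 0.59 and 0.0633). TNNC2 turned sign after a further quantile normalization, cyclic loess and centring on housekeeping genes. TNNI2 did not overlap between groups and passed as lower under the same 3 scalings (adjusted p = 0.002, 0.0145 and 0.009) and with the unmoderated model (0.0454).

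All 3 measured tropomyosin genes fell, where 28.9% of all genes fell, and each stayed lower and called under every alternative in which it was tested. TPM1 and TPM4 lay at or above the median level, where 79.4% of all genes were called. Tropomyosin lies along the actin filament in muscle and non-muscle cells, and TPM1, TPM2 and TPM4 make several isoforms that these values do not separate. TPM2 read 6.92, 6.96 and 6.97 in SAHA cells, against 7.74, 7.81 and 7.55 in control cells, 1.68-fold lower in SAHA cells (adjusted p = 2.43e-05). TPM4 read 11.59, 11.78 and 11.68 in SAHA cells, against 12.10, 11.99 and 12.00 in control cells, 1.27-fold lower (adjusted p = 0.00118). TPM1 read 11.37, 11.42 and 11.31 in SAHA cells, against 11.70, 11.70 and 11.52 in control cells, 1.21-fold lower (adjusted p = 0.00526). No SAHA array reached a control array for any of the 3, and the groups did not overlap in 65.4% of all genes. The second probe set of TPM4 had a smaller difference in the same direction, with means of 10.86 in SAHA cells and 11.04 in control cells.

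The genes for calcium handling, energy and membrane structure in striated muscle moved in both directions. MB, myoglobin, the oxygen store of heart and slow fibres, read 7.69, 7.67 and 7.58 in SAHA cells, against 9.13, 9.31 and 9.15 in control cells, 2.93-fold lower in SAHA cells (change -1.55 ± 0.06 SE, adjusted p = 2.29e-07). CKM, the muscle creatine kinase, read 6.25, 6.35 and 6.33 in SAHA cells, against 5.94, 5.67 and 5.96 in control cells, 1.37-fold higher (adjusted p = 0.00143). RYR1, the calcium release channel of skeletal muscle, read 6.96, 6.94 and 6.99 in SAHA cells, against 6.60, 6.59 and 6.62 in control cells, 1.29-fold higher (adjusted p = 9.02e-05). All 3 SAHA values thus lay under every control value for MB and above every control value for CKM and RYR1. The groups did not overlap in 65.4% of all genes. The calsequestrins CASQ1 and CASQ2, calcium stores of skeletal muscle and heart, had changes of -0.06 and -0.14 and did not pass (adjusted p = 0.419 and 0.0576). CAV3, the caveolin of muscle, was at 6.67 ± 0.04 in SAHA cells and 6.68 ± 0.03 in control cells (SD, n = 3 each), a change of -0.01 whose sign turned when SAHA replicate 2 or control replicate 1 was left out. CASQ2 passed as lower after centring on housekeeping genes (adjusted p = 0.0108) and CAV3 after a further quantile normalization (adjusted p = 0.0332).

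Smooth muscle genes split by gene. TAGLN, transgelin, an actin-bundling protein and common smooth muscle marker, read 9.75, 9.76 and 9.79 in SAHA cells, against 11.19, 11.29 and 11.15 in control cells. It was 2.72-fold lower in SAHA cells (change -1.44 ± 0.05 SE, adjusted p = 1.15e-07). MYLK, the kinase that switches smooth muscle myosin on, read 7.90, 7.82 and 7.91 in SAHA cells, against 8.59, 8.71 and 8.48 in control cells, 1.64-fold lower (adjusted p = 2.25e-05). CALD1, caldesmon, which holds myosin off actin, read 9.94, 9.92 and 9.87 in SAHA cells, against 10.32, 10.43 and 10.35 in control cells, 1.37-fold lower (adjusted p = 5.41e-05). These 3 falls held under every alternative in which the genes were tested.

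CNN1, calponin 1, a marker of contractile smooth muscle, went the other way. It read 7.25, 7.28 and 7.05 in SAHA cells, against 6.71, 6.91 and 6.79 in control cells, 1.31-fold higher in SAHA cells (adjusted p = 0.00246). LMOD1, leiomodin, which nucleates actin filaments in smooth muscle, read 6.25, 6.23 and 6.10 in SAHA cells, against 5.85, 5.71 and 5.98 in control cells, 1.27-fold higher (adjusted p = 0.00456). Neither overlapped with its control arrays, which also held for 65.4% of all genes. SMTN, smoothelin, read 9.51, 9.50 and 9.53 in SAHA cells, against 9.74, 9.87 and 9.54 in control cells and did not pass (adjusted p = 0.0578). Control replicate 3 was the array of SMTN nearest to the SAHA arrays, and without it SMTN passed as lower (adjusted p = 0.00304). With all arrays SMTN also passed as lower under 5 other settings, which were centring on the median of all genes (adjusted p = 0.0481) or on housekeeping genes (0.0119), the filter at the median level (0.0312), the trended robust model (0.0286) and array weights (0.0218).

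Of the other calponin genes, CNN2 was called lower and CNN3 was not called. CNN2, found in many cell types, read 12.07, 12.10 and 12.09 in SAHA cells, against 12.40, 12.46 and 12.34 in control cells, 1.24-fold lower in SAHA cells (adjusted p = 0.000442). CNN3, which is also broadly expressed, averaged 12.28 ± 0.02 in SAHA cells and 12.37 ± 0.11 in control cells (SD, n = 3 each) and did not pass (adjusted p = 0.272).

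**Figure D5:**
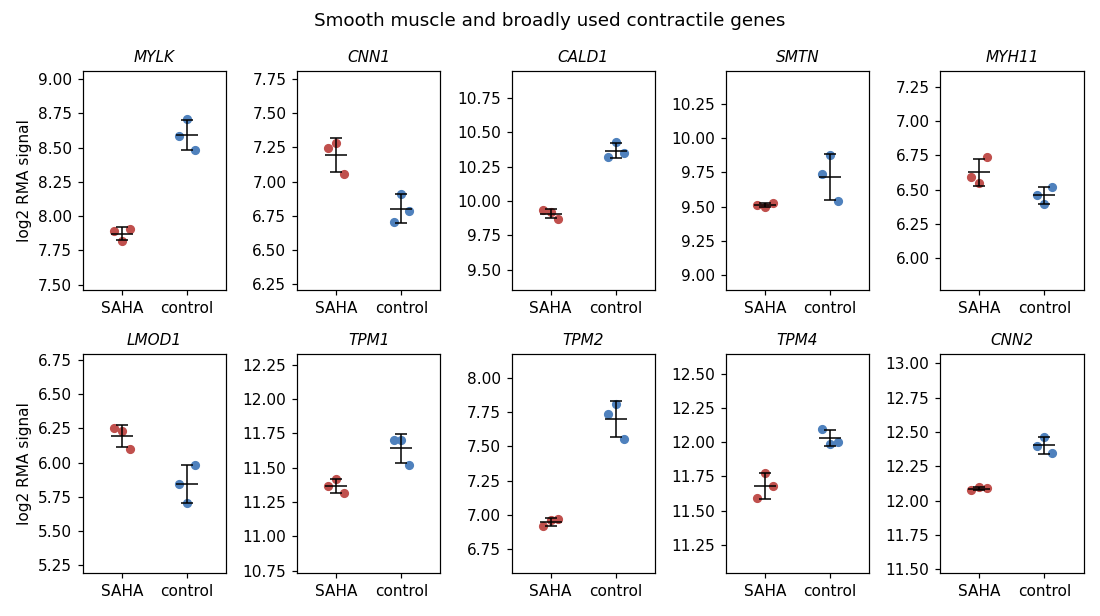
Level on each array (log2 RMA signal, vertical axis) of 10 smooth muscle and broadly used contractile genes in SAHA cells (left, red) and control cells (right, blue), 3 arrays each; black bars are the mean and SD. MYLK, CALD1, CNN2 and the 3 tropomyosins are lower in SAHA cells, CNN1, LMOD1 and MYH11 are higher, MYH11 by the least (change 0.17), and SMTN did not pass.

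A further 5 calls, beside that of MYF6, were near the threshold and were lost when single arrays were left out. MYH1, a heavy chain of fast fibres, read 3.74, 3.81 and 3.83 in SAHA cells, against 3.90, 4.15 and 3.99 in control cells (change -0.22, adjusted p = 0.0249). Its call ended without SAHA replicate 1 (adjusted p = 0.0833) or 2 (0.0558), without control replicate 2 (0.0523) and with the unmoderated model (0.0855). TNNT1, the slow troponin T, read 9.12, 9.07 and 9.13 in SAHA cells, against 9.23, 9.22 and 9.51 in control cells (change -0.21, adjusted p = 0.0485), with control replicate 3 apart from the rest. Its call ended without any 1 of SAHA replicates 1, 2 and 3 (adjusted p = 0.0925, 0.127 and 0.086) and without control replicate 3 (0.057). The TNNT1 call also ended after a further quantile normalization (adjusted p = 0.244), cyclic loess (0.0898) and centring on the median of all genes (0.0537), and with the unmoderated model (0.142). TNNT3, the fast troponin T, read 7.82, 7.87 and 7.87 in SAHA cells, against 7.72, 7.71 and 7.76 in control cells (change 0.12, adjusted p = 0.0359). Its call ended without any 1 of SAHA replicates 1, 2 and 3 (adjusted p = 0.0527, 0.108 and 0.109) and without control replicate 1 (0.0843) or 2 (0.0794). It also ended with the replicate block (adjusted p = 0.0832), with the trended robust model (0.0901), after a further quantile normalization (0.116) and cyclic loess (0.068), and after centring on housekeeping genes (0.407, change 0.05). MYL4, the atrial and fetal light chain, read 5.64, 5.72 and 5.57 in SAHA cells, against 5.73, 5.85 and 5.98 in control cells (change -0.21, adjusted p = 0.0363). Its call ended without SAHA replicate 1 (adjusted p = 0.0863) or 3 (0.118), without control replicate 2 (0.079) or 3 (0.0957), with the replicate block (0.053), array weights (0.0542) and the unmoderated model (0.111). MYH11, the smooth muscle heavy chain, read 6.59, 6.55 and 6.74 in SAHA cells, against 6.46, 6.39 and 6.52 in control cells (change 0.17, adjusted p = 0.0492). Its call ended without SAHA replicate 1 (adjusted p = 0.0754) or 3 (0.16), without control replicate 1 (0.101) or 2 (0.137), with the trended robust (0.0763) and unmoderated (0.115) models, and after a further quantile normalization (0.538), cyclic loess (0.138) and centring on housekeeping genes (0.264). In all 5 genes the groups did not overlap, as in 65.4% of all genes.

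Genes around this machinery were counted from lists of related genes, described without a test of the list. Among 25 sarcomere accessory genes there were 9 rises, 2 falls and 14 that did not pass (median 0.05), a share called of 44.0%. Of these 25, 21 lay under the median level, and 33.3% of those were called, against 40.6% of all genes under it. PDLIM3, a Z-disc protein that binds alpha-actinin, read 8.73, 8.75 and 8.77 in SAHA cells, against 7.35, 7.29 and 7.02 in control cells, 2.90-fold higher in SAHA cells (adjusted p = 1.29e-06). Among 22 genes of excitation and muscle metabolism there were 3 rises, 4 falls and 15 that did not pass, a share called of 31.8%, against 60.0% of all genes and 40.6% of those under the median level, where 20 of the 22 lay. The 4 muscle actin genes had 1 rise, that of ACTG2 (change 0.38, adjusted p = 0.0284), and 1 fall, that of ACTA2 (change -0.38, adjusted p = 0.00427), while ACTA1 and ACTC1 did not pass. Of 10 cardiac factors and markers 5 rose, each by less than 2-fold, and 5 did not pass. Of these 10, 9 lay under the median level, and 44.4% of those were called. Of 8 measured genes of the dystrophin complex 1 rose and 4 fell, a share called of 62.5%, near that of all genes.

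Among 20 regulators of myogenesis 8 rose and 4 fell, a share called of 60.0%, the same as over all genes. HES1, a repressor downstream of Notch, rose 3.14-fold and CDON, a surface receptor that promotes myogenesis, rose 2.34-fold (adjusted p = 1.31e-06 and 2.28e-06). All 10 cofactors known to act on MEF2 or MyoD were called, 6 higher and 4 lower. Of these, 8 lay at or above the median level, where 79.4% of all genes were called. NCOA2, a coactivator known to act with MEF2, was at 7.84, 7.78 and 7.83 in SAHA cells, against 9.56, 9.48 and 9.44 in control cells, 3.18-fold lower (adjusted p = 5.41e-08). Of 22 targets and partners of SRF and its cofactors, 11 rose and 7 fell, with a median of 0.10. The share called was 81.8%, against 60.0% of all genes and 79.4% of those at or above the median level, where 17 of the 22 lay. ANKRD1, a titin-binding repeat protein of striated muscle, read 12.50, 12.49 and 12.57 in SAHA cells, against 8.94, 9.12 and 9.03 in control cells, 11.3-fold higher (adjusted p = 5.52e-09). CCN2, a secreted matricellular protein, was 8.61-fold higher (adjusted p = 6.45e-07). ITGA7, the laminin receptor of muscle, rose 2.67-fold, the immediate early gene FOS 3.50-fold and CSRP2, a smooth muscle LIM protein, 2.10-fold (adjusted p = 1.65e-06, 4.39e-06 and 2.98e-05). TAGLN, MYLK and SRF were thus lower in the same cells in which ITGA7 and CSRP2 were higher. Of 10 genes that regulate non-muscle and smooth muscle myosin 7 rose and 2 fell, none by 2-fold. The share called was 90.0%, and 8 of these 10 lay at or above the median level, where 79.4% of all genes were called.

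Marker genes of other cell types were read beside these results. No deposited signal was under 6.56 on the linear scale, so a listed signal does not show that a marker is present. Of 8 fibroblast markers 5 were higher and 1 was lower, a share called of 75.0%, against 60.0% of all genes. Their summed linear signal was 5298 to 5485 on SAHA arrays and 2451 to 2772 on control arrays. COL1A2, a collagen chain, was 2.62-fold higher in SAHA cells (adjusted p = 1.01e-06). Of 6 endothelial markers 1 was higher and 1 lower (33.3% called). Their sums were 1952 to 2032 on SAHA arrays and 7134 to 7402 on control arrays. The lower marker was CDH5, the cadherin of endothelium, 4.57-fold lower in SAHA cells (adjusted p = 1.1e-08). Of 6 epithelial markers 2 were higher and 3 lower (83.3% called). Of these 6, 5 lay at or above the median level, where 79.4% of all genes were called. Their sums were 26994 to 27593 on SAHA arrays and 28390 to 29658 on control arrays. Of 5 blood cell markers CD14, a monocyte receptor, alone was called, as 4.002-fold higher (adjusted p = 4.05e-08), and the sums were 2157 to 2250 on SAHA arrays and 690 to 738 on control arrays. A sum of linear signals follows the brightest gene of its list. For fibroblast markers that was COL1A2 (mean log2 level 12.02 in SAHA and 10.63 in control cells). For endothelial markers it was CDH5 (10.54 and 12.73), and for blood cell markers CD14 (10.94 and 8.94). The median changes of these lists were 0.44, 0.12 and 0.04, so the sums do not describe the lists as a whole. The part of these markers in the muscle gene results was not tested.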

How the data were processed

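Trizol-extracted total RNA of A204 cells was labelled for Affymetrix whole-transcript arrays, per the labels' protocols. The deposited intensity of each probe set is an RMA signal, per the submitters' processing notes. The software version of RMA is not given in the sources used here. Deposited signals were linear (6.56 to 20338), and log2 was taken. Of 33252 probe sets 19460 named exactly 1 gene, 1754 named several and 12038 none. Entrez identifiers gave current symbols from a RefSeq table of GRCh38.p14 (19429 matched, 31 kept the older symbol).

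SAHA (3 arrays) was compared with control (3 arrays) by limma 3.58.1 in R 4.3.3 (lmFit and eBayes, no covariates, two-sided), with Benjamini-Hochberg adjustment over 18417 genes. Every adjusted p in the text is limma's. Precision is limited by having 3 arrays per group. The code was tested on simulated data. The members, classes and lists were chosen with earlier results of these data known. Any measured member was named, and of other lists the called genes with a change of at least 1 (log2), up to 6 each. ACTA2 and ACTG2, of the muscle actins, were named after their values were seen. The alternatives were other scalings, filters on dim genes, the mean of probe sets, other variance models, array weights, the replicate block and each array left out.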

Additional observations from a re-analysis of the deposited data

How the results depend on the processing

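Of the 33 called members, 25 kept their call and direction under every alternative in which they were tested, 15 of them higher and 10 lower in SAHA. The other 8 lost it under at least 1. Counting only genes at or above the median level kept 18 members, with 4 higher and 11 lower. There only 1 skeletal gene was left, TNNT1, and the class had 0 higher (0 at an unadjusted p under 0.05, limma), 1 lower and a median of -0.21. The 2 cardiac genes left, MYL2 and TNNI3, gave 1 higher, 1 lower and a median of -0.51. MB was the 1 shared striated gene left, and the class median of -1.55 is its change alone. Of the smooth muscle genes 4 were left, with a median of -0.59. The shared striated and the smooth muscle genes each had 0 higher (0 unadjusted). The median was -0.083 for the 7 broad isoforms left and -0.092 for the 3 shared regulators left, with 1 regulator higher. Of the 8 housekeeping genes measured, HPRT1 fell (change -0.69), SDHA rose (0.14) and 6 did not pass. Centring on these genes took the median change of all genes from -0.0027 to -0.08, with 6893 of 18417 genes lower against 5314 before. It gave 23 lower members, 8 lower skeletal genes (median -0.12), 4 lower cardiac genes, a smooth muscle median of -0.10, 1 higher broad isoform (median -0.26) and a regulator median of 0.19. A further quantile normalization gave 6 lower skeletal genes (median -0.11), 4 lower cardiac genes (median -0.13) and 2 lower shared striated genes. The unmoderated model gave 1 lower skeletal and 1 lower cardiac gene, and array weights 1 lower cardiac gene. Leaving out genes under a level of 5, or counting MYH7, MYL2, MYL3 and TNNC1 as skeletal, gave a skeletal median of 0.0406, and the second gave 1 higher and 1 lower cardiac gene (median -0.11). Same-numbered arrays did not deviate together (correlations of -0.030, -0.167 and -0.004), and differently numbered arrays had correlations of -0.074 to 0.103. With 3 arrays per group this cannot show whether same-numbered arrays were handled together, and the main fit used no pairing. With the replicate block there were 19 higher and 12 lower members and 1 lower cardiac gene. Leaving out 1 array in turn gave 0 to 4 lower skeletal genes, 1 to 2 lower cardiac genes, 1 to 2 lower regulators (2 without control replicate 1) and a regulator median of 0.19 to 0.36. The sign of 8 genes that were not called turned: MYH2 (-0.0003 after further quantile normalization, -0.0367 after housekeeping centring), TNNC2 (-0.0683, -0.0222, and -0.0006 after cyclic loess), MYH7 (-0.0621 and -0.0189) and MYL3 (-0.0589 and -0.0150) under the same scalings, MEF2A (0.0073 after further quantile normalization), and, with single arrays left out, MYH6 (-0.0364 to 0.0249), CAV3 (-0.0266 to 0.0128) and MYL9 (-0.0503 to 0.0193). The cause of these shifts was not tested, beyond the smaller number of genes under the level filters. Signal over background could not be read from these values, which limits every statement on dim genes.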

Other observations

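The nearest measured genes on either side of the 6 members that changed at least 2-fold were read as a description. Beside ACTN3 on chromosome 11, ZDHHC24 had a change of -0.13 and CTSF of 0.43, both called. Beside MYL2 on chromosome 12, CCDC63 and CUX2 did not pass, with changes of -0.0003 and 0.0019. Beside MB on chromosome 22, APOL6 was lower by a change of -1.66 and RASD2 was higher by 0.57 in SAHA cells. Beside TAGLN on chromosome 11, SIDT2 had a change of -0.70 and PCSK7 of 0.40, both called. Beside MYOM1 on chromosome 18, LPIN2 and MYL12A were higher by 0.26 and 0.40. Beside MEF2D on chromosome 1, IQGAP3 was lower by a change of -2.30, while RHBG did not pass (-0.04).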
